A study of Rattus norvegicus with 6 samples.

Results

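The urea cycle and the genes that handle ammonia around it were read in rat liver as a set of 10 genes: Cps1, Otc, Ass1, Asl, Arg1, Nags, Slc25a15, Glud1, Gls2 and Slc38a3. They were chosen by name for their function, with earlier results of these data known. Probes were matched to them through RefSeq accessions. All 10 had a probe on the array, out of 15284 named genes, and together they had 15 probes. The study used one-colour Agilent arrays, 1 per animal, on the livers of male rats of the outbred Sprague-Dawley stock. The 3 animals of the vehicle group received no test compound, and the 3 of the tBA group were dosed with 1000 mg/kg/day of tert-butyl alcohol, a small branched alcohol and industrial solvent. All were bought at 5 weeks of age and kept on the same basal diet. The labels give the vehicle as purified water in one place and as corn oil in another, and the dosing as 28 days in one place and 9 weeks in another. The tissue is whole liver, so fewer cells of a type and less RNA per cell cannot be told apart.

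Breakdown of amino acids releases ammonia, which is toxic, and periportal hepatocytes turn it into urea. Nags makes the activator that Cps1 needs, Cps1 joins ammonia and bicarbonate in the mitochondrion, and Otc passes the product to ornithine. Slc25a15 carries ornithine in and citrulline out, and Ass1, Asl and Arg1 complete the cycle in the cytosol. Gls2, the liver glutaminase, and Glud1, glutamate dehydrogenase, supply ammonia inside the mitochondrion, and Slc38a3 moves glutamine across the plasma membrane. Pericentral hepatocytes capture the ammonia that escapes the cycle by making glutamine with Glul.

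Promoter sequences in the RefSeq table of the GRCr8 assembly, 250 bases before to 50 after a gene's start, were matched by symbol for 8 of the 10 genes, with 9 entries because Gls2 has a pair. Arg1 and Slc38a3 were not matched. The promoters of Cps1, the entry enzyme, and of Gls2 and Glud1, the enzymes that supply it with ammonia and that were both measured higher with tBA, are shown on their own strand, 5′ to 3′. Capitals mark each match to 6 motifs, searched on both strands. The HNF4-type motif was CAAAGTCCA. The box named after its letters was CCAAT. The TATA box was searched as TATAAA. The core of the cAMP response element was searched as TGACG. A half-site of the glucocorticoid receptor was searched as TGTTCT, and the GC box as GGGCGG. Short motifs occur widely, so a match describes letters and not a bound site, and 0 matches in the 9 windows overlapped another motif.
Cps1, chr9:76063613-76063912, plus strand: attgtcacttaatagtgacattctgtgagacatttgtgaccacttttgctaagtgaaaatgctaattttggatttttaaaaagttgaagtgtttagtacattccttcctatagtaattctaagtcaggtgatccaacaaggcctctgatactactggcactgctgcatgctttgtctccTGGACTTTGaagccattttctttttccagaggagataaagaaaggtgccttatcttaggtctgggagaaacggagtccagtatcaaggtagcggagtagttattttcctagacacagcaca
Gls2, chr7:1201629-1201928, plus strand: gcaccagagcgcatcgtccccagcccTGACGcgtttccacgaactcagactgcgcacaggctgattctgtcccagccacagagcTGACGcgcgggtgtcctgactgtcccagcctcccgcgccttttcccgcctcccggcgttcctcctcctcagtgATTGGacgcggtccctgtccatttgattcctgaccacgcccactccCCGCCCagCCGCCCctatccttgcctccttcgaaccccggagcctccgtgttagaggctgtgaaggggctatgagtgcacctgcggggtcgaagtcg
Glud1, chr16:9646319-9646618, plus strand: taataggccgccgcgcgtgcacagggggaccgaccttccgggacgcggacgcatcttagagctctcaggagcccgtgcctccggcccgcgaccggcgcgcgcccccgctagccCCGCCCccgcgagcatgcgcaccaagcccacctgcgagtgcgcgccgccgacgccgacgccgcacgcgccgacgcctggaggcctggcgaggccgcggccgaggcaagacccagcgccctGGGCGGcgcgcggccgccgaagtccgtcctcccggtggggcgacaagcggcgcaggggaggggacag
The Cps1 window held the HNF4-type motif on the opposite strand from 71 bases before the start, a motif present in 0.391% of the 33469 promoters of this length. Of the 9 windows of these genes, that was the only 1 with it. The Gls2 window shown held the cAMP core from 224 and from 166 bases before the start. On the opposite strand it held the CCAAT box from 93 bases before the start and the GC box from 47 and from 39 bases before it. The other Gls2 window, not shown, held no match to any of the motifs. The Glud1 window held the GC box from 17 bases before the start and, on the opposite strand, from 137 bases before it. Over all promoters, the cAMP core was present in 21.2%, the CCAAT box in 37.5%, the GC box in 33.1%, the TATA box in 14.2% and the glucocorticoid half-site in 20.7%. Of the 9 windows, 0 held the glucocorticoid half-site, and 1, that of Ass1, held the TATA box.

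Levels are the log2 of the processed signal minus the log2 of the array's 75th percentile, so 0 is the level of the probe at that percentile and 1 unit is a doubling. The share of the 61657 probes that stood well above background ran from 61.5% to 66.9%, with no saturated spot. Correlations across tested probes were 0.989 to 0.991 within a group and 0.984 to 0.988 between groups. The vehicle arrays and tBA replicate 1 shared slide 1, while tBA replicates 2 and 3 were on slide 2. The number of arrays limited the precision, and the smallest exact two-sided permutation p of 3 arrays against 3 is 0.1.

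Most genes of the set were measured somewhat higher with tBA, and none passed the test. By the brightest probe of each gene, 9 of the 10 were higher and 1, Slc38a3, was lower. Of all genes tested, 50.6% were higher. The 9 include Slc25a15, whose probes differ in sign. The number higher was 8 by the mean of all probes, under quantile normalization and without vehicle replicate 1. It was also 8 with slide as a fixed block and within slide 1. In limma with Benjamini-Hochberg adjustment over 11094 genes, 0 of the 10 passed at 0.05, with adjusted p between 0.218 and 0.804, and 0.0361% of all genes passed. At an unadjusted p under 0.05 there were 4 of the 10 on the higher side (Ass1, Arg1, Glud1 and Gls2), where 7.64% of all genes lay, and 1 on the lower side (Slc38a3), where 7.45% lay. The groups did not overlap in 4 genes on the higher side (Arg1, Nags, Glud1 and Gls2), against 12.8% of all genes, and in 1 on the lower side (Slc38a3), against 11.3%. The median log2 difference of the 10, tBA minus vehicle, was 0.30, and that of all genes 0.0032. Bright genes as a class lay above that: 2469 genes had a mean level at or above 2.95, that of the dimmest of the 10, with a median log2 difference of 0.072 and 65.7% of them higher. The count of 5 genes at an unadjusted p under 0.05 was 3 without vehicle replicate 1, 3 without tBA replicate 2, 3 without tBA replicate 3 and 2 under quantile normalization. Within slide 1, which has a single tBA array, and with slide as a fixed block it was 1, and that gene was Slc25a15, which is not among the 5.

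**Figure D1:**
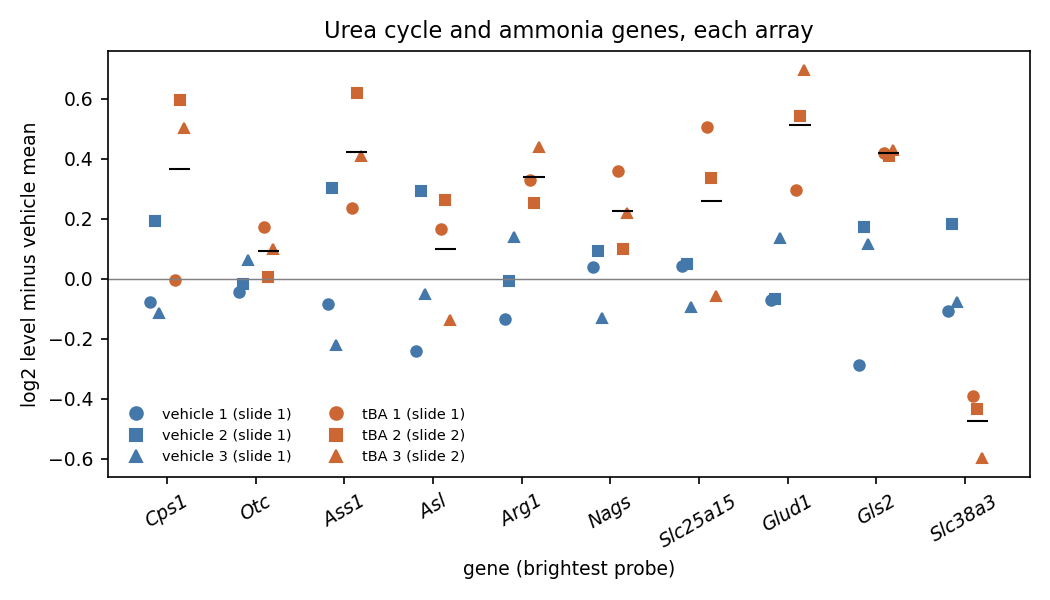
Log2 level of each gene's brightest probe on each array, minus the mean of the 3 vehicle arrays (vertical axis), for the 10 genes (horizontal axis). Blue symbols are vehicle arrays, orange symbols tBA arrays, the shape is the replicate number, and the short line is the tBA mean; the 3 tBA arrays lie below the vehicle arrays for Slc38a3 and close together for Gls2.

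The mitochondrial entry enzymes differed little or unevenly. Nags, which makes the activator of Cps1, was at 2.88, 2.93 and 2.70 on vehicle replicates 1 to 3 and at 3.19, 2.94 and 3.06 on tBA replicates 1 to 3. The tBA arrays were all higher, though tBA replicate 2 barely cleared vehicle replicate 2. This gave a log2 difference of 0.23 (SE 0.11, 95% interval -0.042 to 0.49), with a limma adjusted p of 0.382.

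Cps1, which commits ammonia to the cycle, was at 4.41, 4.68 and 4.38 on the vehicle arrays and at 4.49, 5.09 and 4.99 on the tBA arrays. The tBA arrays split: replicates 2 and 3, on slide 2, were above every vehicle array, and replicate 1, on slide 1, lay among them. The log2 difference was 0.36 (SE 0.18, 95% interval -0.083 to 0.81; limma adjusted p = 0.393). Within slide 1 it was -0.0052, and without tBA replicate 1 it was 0.55, so this value rests on the arrays of slide 2, where slide and treatment cannot be told apart.

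Otc, which makes citrulline, was the steadiest of the 10, at 5.10, 5.13 and 5.21 with vehicle and 5.32, 5.15 and 5.24 with tBA. The groups overlapped. Its log2 difference was 0.092 (SE 0.089, 95% interval -0.12 to 0.31; limma adjusted p = 0.624), which bounds a change at 1.24-fold on the higher side.

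Of the cytosolic enzymes, Arg1 was separated between groups and Ass1 and Asl were not. Arg1, the arginase that splits off urea, was at 8.09, 8.22 and 8.36 with vehicle and at 8.55, 8.48 and 8.66 with tBA. Every tBA array was above every vehicle array. Its log2 difference was 0.34 (SE 0.11, 95% interval 0.079 to 0.60; limma adjusted p = 0.274), a fold of 1.27.

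Ass1, which joins citrulline to aspartate, was at 7.18, 7.57 and 7.05 with vehicle and at 7.50, 7.88 and 7.68 with tBA. Vehicle replicate 2 stood above the other vehicle arrays and above tBA replicate 1, so the groups overlapped. A log2 difference of 0.42 resulted (SE 0.17, 95% interval 0.0061 to 0.84, limma adjusted p = 0.329). It was 0.24 within slide 1.

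Asl, which cleaves argininosuccinate into arginine and fumarate, was at 7.18, 7.71 and 7.37 with vehicle and at 7.59, 7.69 and 7.29 with tBA by its brighter probe. The highest array of all was vehicle replicate 2. Its mean with tBA exceeded that with vehicle by 0.098 on the log2 scale (SE 0.18, 95% interval -0.33 to 0.52; limma adjusted p = 0.804), and it turned to -0.040 under quantile normalization and to -0.023 without vehicle replicate 1. The other probe of Asl gave -0.011 (SE 0.18). Vehicle replicate 2 was thus the highest vehicle array for Cps1, Ass1 and Asl alike, by 0.19, 0.30 and 0.29 over the vehicle mean, as it was for Nags, Slc25a15, Gls2 and Slc38a3.

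Slc25a15, the ornithine carrier, had a pair of probes that went opposite ways. The brighter was at 4.32, 4.33 and 4.19 with vehicle and at 4.78, 4.62 and 4.22 with tBA. Replicates 1 and 2 of tBA were above the vehicle arrays and replicate 3 lay among them, for a log2 difference of 0.26 (SE 0.16, limma adjusted p = 0.454). The dimmer was at -2.15, -2.55 and -2.86 with vehicle and at -2.89, -2.86 and -3.13 with tBA. Its groups did not overlap, though tBA replicate 2 at -2.862 barely lay under vehicle replicate 3 at -2.860. The log2 difference of the dimmer probe was -0.44 (SE 0.19, limma adjusted p over probes = 0.333). The dimmer probe had processed signals of 65.1 to 133 against 10634 to 16107 for the brighter, with local backgrounds of at most 52. The mean of both probes gave -0.089 (SE 0.16), so no direction can be given for this gene.

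The enzymes that supply ammonia inside the mitochondrion had the largest differences on the higher side together with Ass1. Glud1, which frees ammonia from glutamate, was at 6.43, 6.43 and 6.64 with vehicle and at 6.80, 7.04 and 7.20 with tBA. All tBA arrays were above all vehicle arrays, and the arrays of slide 2 were the highest. Means differed by 0.51 on the log2 scale (SE 0.13, 95% interval 0.19 to 0.83; limma adjusted p = 0.221), a fold of 1.43, and 0.29 within slide 1. Its other probes gave 0.27 (SE 0.13) and 0.32 (SE 0.12), so the 3 probes had the same sign and the brightest gave the largest value. The groups overlapped for the probe at 0.27, with tBA replicate 1 at 5.43 and vehicle replicate 3 at 5.46. Within slide 1 that probe was at 0.047.

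Gls2, which frees ammonia from glutamine, was at 6.68, 7.14 and 7.09 with vehicle and at 7.39, 7.38 and 7.40 with tBA. The tBA arrays lay close together (SD 0.010) and above the vehicle arrays, of which replicate 1 was the lowest. The log2 difference was 0.42 (SE 0.14, 95% interval 0.083 to 0.76; limma adjusted p = 0.279). It was 0.42 within slide 1 and 0.28 without vehicle replicate 1, which moves it by over 1.5 times. The second probe read 5.21, 5.61 and 5.57 with vehicle and 5.95, 6.00 and 6.00 with tBA, a log2 difference of 0.52 (SE 0.13).

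**Figure D2:**
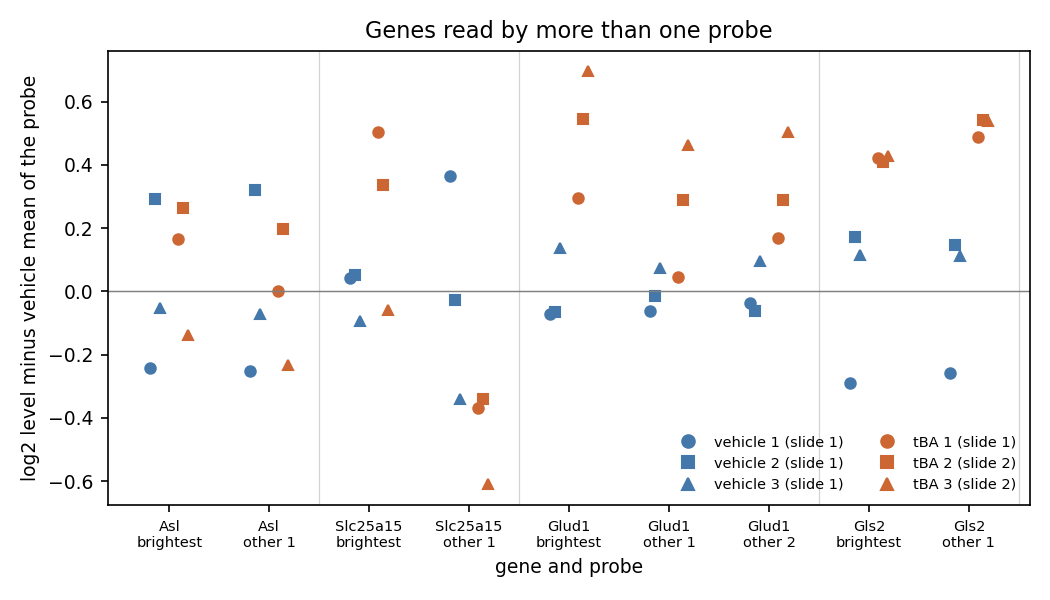
Log2 level of every probe of the 4 genes with more than 1 probe, minus the vehicle mean of that probe (vertical axis), by gene and probe (horizontal axis). Blue is vehicle and orange tBA, with the replicate as the shape. The tBA mean is higher for each probe of Gls2 and Glud1, though the groups overlap for the Glud1 probe at 0.27. The pair of Slc25a15 differ in sign, at 0.26 and -0.44.

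Slc38a3, a glutamine transporter of the plasma membrane, was the 1 gene of the set on the lower side. It was at 3.30, 3.59 and 3.34 with vehicle and at 3.02, 2.98 and 2.82 with tBA. Every tBA array was below every vehicle array. The log2 difference was -0.47 (SE 0.12, 95% interval -0.76 to -0.19; limma adjusted p = 0.218), so vehicle was 1.39-fold above tBA. It was -0.39 within slide 1, and between -0.53 and -0.38 over the 19 alternatives.

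Gls2 frees ammonia from glutamine and Slc38a3 carries glutamine. The distance between their log2 levels within an array does not change when each array is scaled by a single factor. Relative to its vehicle mean, Gls2 minus Slc38a3 was at -0.18, -0.010 and 0.19 on the vehicle arrays and at 0.81, 0.84 and 1.02 on the tBA arrays. The pair was chosen after its values were seen, so this difference of 0.89 is a description with no test.

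**Figure D3:**
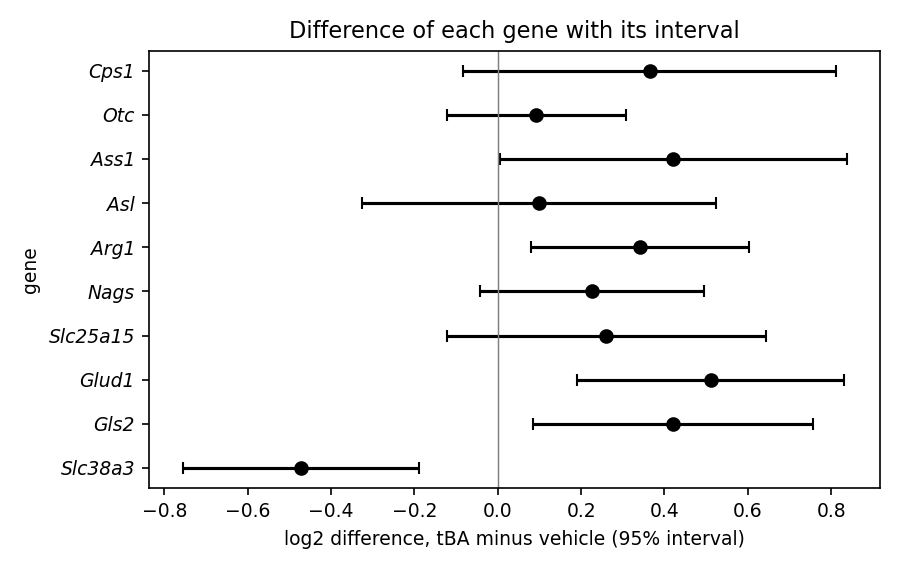
Log2 difference of each gene, tBA minus vehicle (horizontal axis), with its 95% interval from limma as the bar, for the 10 genes (vertical axis). The intervals of Ass1, Arg1, Glud1 and Gls2 lie above 0 and that of Slc38a3 below it, before any adjustment for the number of genes tested.

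Half-widths of the 95% intervals of the 10 genes ran from 0.22 for Otc to 0.45 for Cps1. Because slide 1 held a single tBA array, the difference within slide 1 is the distance of tBA replicate 1 from the vehicle mean. It was 0.50 for Slc25a15, 0.42 for Gls2, 0.36 for Nags, 0.33 for Arg1, 0.29 for Glud1, 0.24 for Ass1, 0.17 for Otc, 0.17 for Asl, -0.0052 for Cps1 and -0.39 for Slc38a3. The median of the 10 genes relative to the vehicle mean was 0.27, 0.30 and 0.32 on tBA replicates 1 to 3, and -0.082, 0.13 and -0.063 on vehicle replicates 1 to 3. On tBA replicates 1, 2 and 3, 8, 9 and 7 of the 10 were above the vehicle mean.

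**Figure D4:**
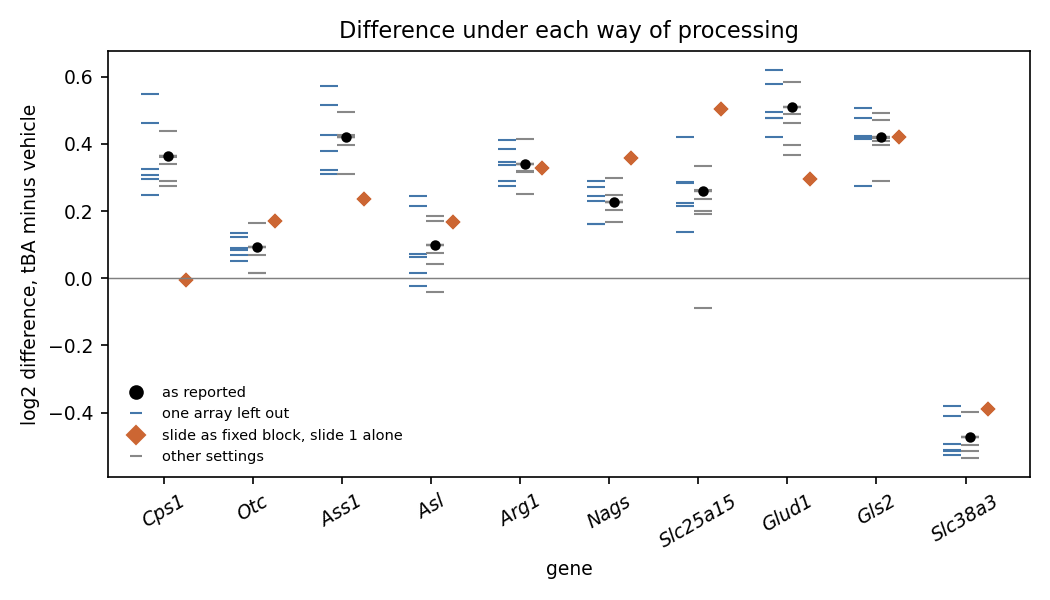
Log2 difference of each gene, tBA minus vehicle (vertical axis), as reported (black circle) and under 19 alternatives, for the 10 genes (horizontal axis). Blue ticks leave out 1 array, orange diamonds are slide as a fixed block and slide 1 alone, and grey ticks the other settings; Arg1, Glud1 and Gls2 stay above 0 and Slc38a3 below it throughout, while Cps1, Asl and Slc25a15 reach or cross 0.

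Around the cycle, 64 neighbouring genes in 6 lists were tested, of which 35 were higher and 29 lower with tBA. None passed over all genes in limma, and 11, or 5 higher and 6 lower, had an unadjusted p under 0.05, against 15.1% of all genes in either direction. Their median log2 difference was 0.048. None of these lists was tested as a list.

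Glul, the enzyme that captures ammonia as glutamine, was at 3.58, 3.78 and 3.40 with vehicle and at 2.76, 2.15 and 2.68 with tBA, all tBA arrays below all vehicle arrays. Its log2 difference was -1.06 (SE 0.19, limma adjusted p = 0.175). Of the 7 genes of glutamine synthesis and pericentral ammonia handling, 1 was higher, 6 were lower and 0 passed, with a median of -0.27. Slc1a4, a neutral amino acid carrier, was at -0.55 and the pericentral marker Lgr5 at -0.24, while Axin2, a target of Wnt signalling, was at 0.54, each with overlapping groups. All were dim, with processed signals of 26.5 to 66.6 for Slc1a4, 38.1 to 55.4 for Lgr5 and 51.9 to 116 for Axin2. Their local backgrounds were at most 42, and Glul had processed signals of 2515 to 8651. Within slide 1 Slc1a4 was at -0.038 and Lgr5 at -0.030, and with normexp background correction they were at -0.11 and -0.0092. Axin2 was at 0.25 without vehicle replicate 2, at 0.81 without vehicle replicate 3 and at 0.28 with normexp.

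Ammonia release and amino group transfer had 7 of 14 genes higher, 7 lower and 0 passing, with a median of 0.0058. Gpt, alanine aminotransferase, was at 4.25, 4.72 and 4.58 with vehicle and at 5.04, 5.73 and 5.40 with tBA. Its groups did not overlap, for a log2 difference of 0.87 (SE 0.21, limma adjusted p = 0.211), and it was 0.53 within slide 1. The aspartate aminotransferase Got1 was at 0.41 with overlapping groups. It dropped to 0.20 when tBA replicate 2 was left out and to 0.26 when vehicle replicate 3 was, and it reached 0.62 when vehicle replicate 2 was. Adenosine deaminase, Ada, and the amine oxidase Maob were at -0.24 and -0.20, without overlap, and Ada was at -0.10 with normexp background correction and Maob at -0.13 with median normalization.

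Carriers and suppliers of the cycle had 8 of 12 genes higher, 4 lower and 0 passing, with a median of 0.17. Slc7a2, which carries arginine and ornithine into cells, was at 0.31 (SE 0.081, limma adjusted p = 0.225) and had 3 probes of the same sign. The amino acid carrier Slc38a4 was also at 0.31 (SE 0.096, adjusted p = 0.265), and both had groups that did not overlap. Car5a, the mitochondrial carbonic anhydrase that supplies bicarbonate to Cps1, and the glutamate carrier Slc25a22 were at 0.45 and 0.36 with overlapping groups. Under quantile normalization Slc38a4 was at 0.18, within slide 1 Car5a was at 0.18, and without vehicle replicate 3 Slc25a22 was at 0.23.

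Arginine and ornithine side reactions had 5 of 10 genes higher, 5 lower, 0 passing and a median of -0.0093. Prodh, which starts proline breakdown, was at 1.00 (SE 0.14, limma adjusted p = 0.129) with 4 probes of the same sign. The agmatinase Agmat was at 0.24 without overlap and the polyamine enzyme Odc1 at 0.16 with overlapping groups. Within slide 1 Agmat was at 0.10 and Odc1 at -0.0032. Agmat was at 0.14 under quantile normalization and 0.16 without vehicle replicate 3, and Odc1 at 0.072 without tBA replicate 2 and 0.25 without tBA replicate 1.

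Transcription factors and enzymes known to act on urea cycle genes had 7 of 13 higher, 6 lower and 0 passing, with a median of 0.060. Onecut1, a hepatocyte factor also called HNF6, was at 5.03, 5.76 and 5.12 with vehicle and at 1.91, 4.03 and 2.38 with tBA. Its log2 difference was -2.53 (SE 0.55, limma adjusted p = 0.199), with tBA replicate 2 well apart from the other tBA arrays. Cebpa, which drives Cps1 and Arg1 in hepatocytes, was at 1.09, 1.24 and 0.82 with vehicle and at 0.57, 0.29 and 0.57 with tBA, a log2 difference of -0.57 (SE 0.14, adjusted p = 0.221). Nr3c1, the glucocorticoid receptor, was at 1.87, 1.90 and 1.90 with vehicle and at 1.57, 1.57 and 1.56 with tBA, a log2 difference of -0.32 (SE 0.076, adjusted p = 0.210). By the mean of its probes Nr3c1 was at -0.19. The mitochondrial deacetylase Sirt3 was at 0.40 with overlapping groups, and at 0.14 within slide 1.

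Fasting and glucocorticoid genes, read for hormonal state, had 7 of 8 higher, 1 lower and 0 passing, with a median of 0.38. G6pc1, the last enzyme of glucose output, was at 6.70, 5.80 and 5.25 with vehicle and at 6.87, 7.63 and 6.78 with tBA. The groups did not overlap, though vehicle replicate 1 lay just under tBA replicate 3. The log2 difference was 1.18 (SE 0.41, limma adjusted p = 0.289); it dropped to 0.84 when vehicle replicate 3 was left out and reached 1.57 when vehicle replicate 1 was. Fkbp5 and Tsc22d3, glucocorticoid-induced genes, were at 0.80 and 0.53, each with overlapping groups. Fkbp5 was at 0.41 without vehicle replicate 3, at 0.51 without tBA replicate 1 and at 1.38 within slide 1. Tsc22d3 was at 0.21 without vehicle replicate 3, 0.28 without tBA replicate 2, 0.81 without tBA replicate 3 and 0.82 without vehicle replicate 1. Creb3l3, a fasting-induced factor, was at 0.23 by its brighter probe, with overlapping groups, and its other probe had the opposite sign, so no direction is given for it. It is counted among the 7 higher by its brighter probe. Another gene of the 7 also had a pair of probes of opposite sign.

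**Figure D5:**
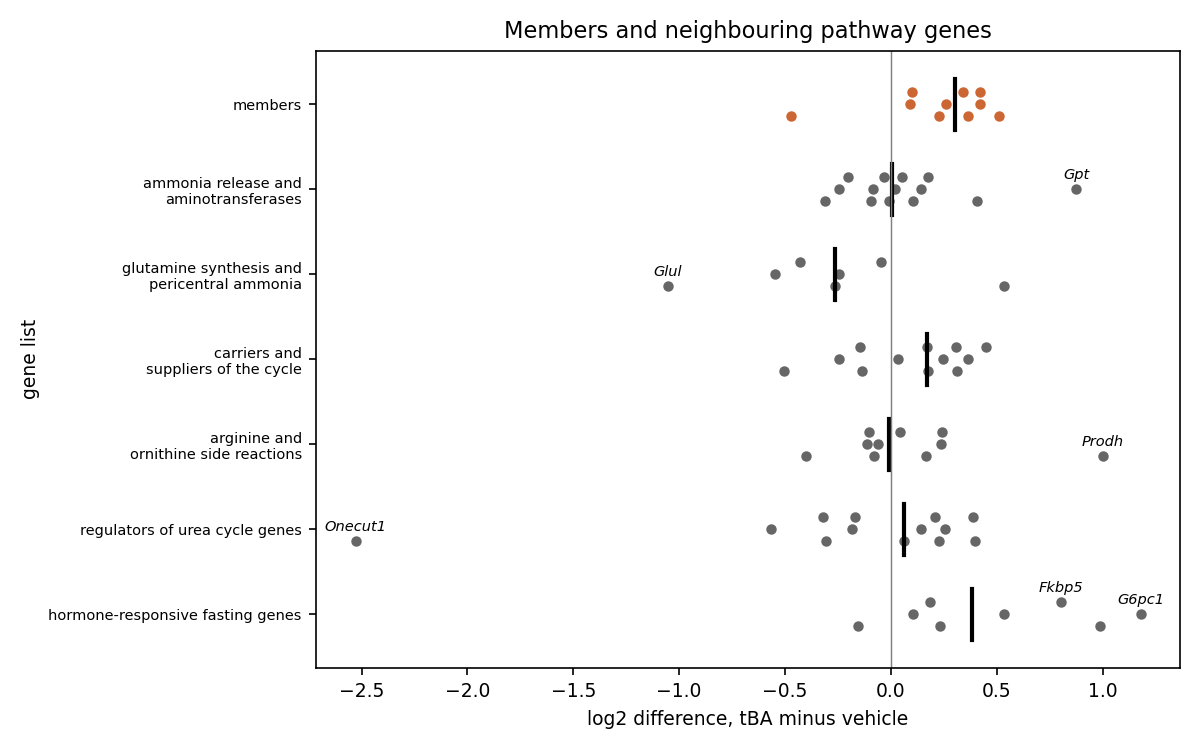
Log2 difference of each gene, tBA minus vehicle (horizontal axis), for the 10 genes (orange) and the 6 lists of neighbouring genes (grey), with the median of each list as a vertical line (vertical axis: list). The medians run from -0.27 for glutamine synthesis to 0.38 for fasting genes, and Glul, Prodh, Gpt, Onecut1, G6pc1 and Fkbp5 are named.

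The livers read as liver. All 8 hepatocyte markers were well above background on every array, and their summed level, in multiples of the array's 75th percentile, was 5200 to 5621 with vehicle and 5188 to 5463 with tBA; 5 were higher and 3 lower. Macrophage and neutrophil markers, of cells that can also hold arginase, summed to 19.1 to 25.5 with vehicle and 17.3 to 19.9 with tBA, with 3 of 7 higher. Small intestine markers, of an epithelium that also expresses Cps1 and Otc, summed to 8.03 to 10.6 with vehicle and 5.69 to 7.84 with tBA over 5 matched genes, and the villus protein Vil1 was well above background on 0 arrays. Most of that sum was Anpep, at a log2 difference of -0.46, with Fabp2 at -0.55. Of the 4 genes tested 2 were lower and 2 higher, among them the dim Cdx2 at 0.78 (processed signals 17.0 to 43.4). Kidney tubule markers summed to 10.4 to 11.7 with vehicle and 10.9 to 12.5 with tBA, with Slc34a1 on 0 arrays, and red blood cell markers to 212 to 299 and 221 to 334. Nearly all of the kidney sum was Aqp2. Bile duct markers summed to 1.50 to 1.70 and 1.32 to 2.01, skeletal muscle markers to 0.730 to 0.886 and 0.776 to 1.22, and exocrine pancreas markers to 0.583 to 0.646 and 0.644 to 0.682, with Prss1, Pnlip and Cela1 on 0 arrays. The part of these markers in the differences of the 10 genes was not tested.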

How the data were processed

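Total liver RNA of 6 rats was labelled with Cy3 and hybridised to 1 array each. Per the file headers, the authors' intensity values came from Agilent Feature Extraction 10.7.1.1 (10.7 in the submitters' processing notes), which subtracts local background. The deposited series table holds a linear ratio, the processed signal divided by 570.0 to 639.5, 1 number per array close to its 75th percentile. Its column medians, 0.095 to 0.102, show a linear scale without centring per gene, on which higher means more signal.

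Outlier-marked spots (3 to 16 per array) were set to missing and controls dropped. The measure was log2 of the processed signal minus log2 of the 75th percentile. Testing needed a probe to be well above background on every array of a group, true of 37647 probes and 11094 genes. All 15 probes of the 10 genes passed. The limma 3.58.1 package (R 4.3.3; lmFit, eBayes) was run over all tested probes, and a gene took its brightest probe. Probes were named through their accession in RefSeq genes of GRCr8 (27460 probes, 15284 symbols); the array annotation uses rn4, so no gene coordinates were used. Promoters are from RefSeq, GRCr8. On simulated data (37629 probes, 10 datasets, 200 changed probes each), this comparison called 54.8% of 2-fold changes.

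The 10 genes and the lists were chosen with earlier results of these data known. Named were the 10 genes with every tested probe, up to 4 genes per list by smallest p with any that passed, and the 5 genes whose profile is closest to that of Cps1. Of 70 listed neighbouring genes 64 were tested. Of the genes so named, 1 is not reported here as a single gene; it stays in each test and count. Alternatives were normexp with an offset of 50 (on the median signal, as the files hold no mean signal), quantile, median and detected-probe scaling, the authors' table, filters, an intensity trend, the mean of probes, slide as a block or alone, the replicate number as a block, and each array left out. Plots were made in matplotlib 3.10.9 under Python 3.11.15.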

Additional observations from a re-analysis of the deposited data

How the results depend on the processing

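Under 19 alternatives, 0 of the 10 genes passed the adjusted threshold in limma in any of 190 values. Otc, Ass1, Arg1, Nags, Glud1, Gls2 and Slc38a3 kept their direction in all 19. Cps1 was at -0.0052 with slide as a fixed block and within slide 1, both of which rest on tBA replicate 1. Asl was at -0.040 with quantile normalization and between -0.023, without vehicle replicate 1, and 0.24, without vehicle replicate 2, when 1 array was left out, and Slc25a15 at -0.089 by the mean of its probes. Among the neighbours, Odc1 was at -0.0032 with slide as a fixed block and within slide 1. The cause of these turns was not tested, except that the Slc25a15 probes differ in sign. The median of the 10 genes was 0.22 to 0.37. The 43 probes of 37647 that passed became 18 with no filter on dim probes, 0 with only probes well above background on all 6 arrays (5637 at an unadjusted p under 0.05), 68 with the intensity trend, 20 with slide as a fixed block and 0 within slide 1 (2956 at an unadjusted p under 0.05). Leaving out 1 array gave 7 to 53, the lowest without tBA replicate 2. Over the tested probes, deviations of same-numbered arrays correlated at -0.056, -0.064 and 0.014, and those of differently numbered arrays at -0.058 to 0.11. A correlation over all probes cannot tell whether single genes vary with the replicate number. The replicate block gave an SE of 0.098 for Got1 and 0.34 for Slc1a4, against 0.26 and 0.28 without it. With the replicate block 6 probes passed and 0 of the 10 genes.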

Other observations

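The 5 named genes outside the set whose log2 profile over the 6 arrays, centred on its mean, lay closest to that of Cps1 were Pacc1, Tdrkh, Lkaaear1, Nfya and Cisd1. On no array did they differ from it by more than 0.079, 0.099, 0.12, 0.12 and 0.13. Closeness of this kind was common, with 71 of 11070 genes within 0.2 on every array, and no function or control is read from it. Relative to its vehicle mean, the within-array log2 distance Glud1 minus Glul was at -0.062, -0.26 and 0.32 on the vehicle arrays and at 1.12, 1.98 and 1.60 on the tBA arrays, and Gls2 minus Glul at -0.28, -0.021 and 0.30 and at 1.25, 1.85 and 1.33. Both pairs were chosen after their values were seen and have no test.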
